A study of Rattus norvegicus with 8 samples.

Results

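The transcripts of uninjured CA3 hippocampal neurons were described from 4 of the 8 arrays of a rat brain injury study, namely the 2 arrays of naive rats and the 2 arrays of sham rats. These 4 arrays were taken by their labels, without use of any measured value, and were treated as 1 group with no contrast between naive and sham. Neurons were cut by laser capture from the CA3 subfield of frozen sections, and their pooled RNA was hybridized to 1-colour Agilent whole-genome arrays. The paper's protocol for array samples stained sections with Fluoro-Jade and cresyl violet. Naive sections of its separate PCR experiment were stained with cresyl violet alone. The other 4 arrays held surviving and dying neurons captured after fluid percussion injury. All rats were male Sprague-Dawley; naive rats received no treatment, sham rats received a sham injury, and sham brains were removed 24 h later. The age of the rats and the number of neurons in each uninjured pool were not given in the sources used here. Poly(A) RNA of the pools went through 2 rounds of amplification, for which the labels name a pair of kits without saying which pool received which.

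CA3 pyramidal cells are the excitatory neurons of the hippocampus that receive mossy fibres from the dentate gyrus and project to CA1 through the Schaffer collaterals. They also excite each other through recurrent collaterals, fire in bursts, and carry kainate receptors at the mossy fibre synapse. Their cell bodies form a tight layer among the processes of astrocytes, oligodendrocytes, microglia, capillaries and scattered interneurons.

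RefSeq probes well above background on all 4 arrays were ranked by their mean log2 signal over the array median, so that a level of 0 stands for the median probe of an array. Of 24588 RefSeq probes, 11175 (45.4%) met this condition, 4603 were well above background on 1 to 3 arrays and 8810 on none. Their levels ran from 13.09 down to -0.27, with a median of 4.28 and quartiles of 2.27 and 6.55, and 390 probes stood above 10. The 11175 probes included 8896 of 18060 named genes (49.3%), and the median level of these genes was 4.50. A probe's signal depends on the probe as well as on its transcript, so ranks between genes are a description of these arrays and not a measure of molar abundance. Among 1187 genes with every RefSeq probe well above background on all 4 arrays, the median gap between a gene's probes was 2.43 on the log2 scale, and 991 genes had 1 probe on all 4 arrays and another on none. Genes of the ranking were read from their brightest RefSeq probe on these 4 arrays. Genes of the marker, receptor, channel and peptide lists were read from the RefSeq probe brightest over all 8 arrays. A list gene counted as well above background on all 4 arrays if any of its RefSeq probes was. Disagreeing probes are given for some genes only.

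The 4 arrays ranked the transcripts alike. Pearson's r across the 11175 probes lay between 0.969 for naive replicate 1 with naive replicate 2 and 0.984 for sham replicate 1 with sham replicate 2; probes are not independent replicates. Naive replicate 1 sat below the others, with a median offset of -0.47 from the 4-array mean, against 0.06 for naive replicate 2, 0.34 for sham replicate 1 and 0.08 for sham replicate 2. The median SD of a probe over the 4 arrays was 0.44, and 0.27 after each array was centred on its own offset. Array medians of the processed signal were 27.2, 22.7, 16.5 and 16.4 in the same order, and 22445, 22390, 20910 and 20191 probes were well above background. The number of arrays limits the precision of every level. The paper describes pooling neurons from several rat brains for its arrays, and calls its pools of dying and surviving neurons biological replicates. The labels do not tie pools to separate animals. SDs and p-values therefore measure only the spread between these samples, which may be technical.

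The highest ranks belonged to housekeeping and neuronal transcripts. Ubb, a polyubiquitin gene, stood first, at 12.72 and 13.16 on the naive arrays and 13.39 and 13.07 on the sham arrays. Mif, a cytokine with tautomerase activity that neurons also make, read 12.53, 13.14, 13.40 and 13.16 in the same order. Tubb2b, a neuronal beta-tubulin, read 12.61, 13.05, 13.41 and 13.15. In each of these genes naive replicate 1 was the lowest array and sham replicate 1 the highest, and the same held for all 25 of the highest genes. Ubb, the tubulins, Gapdh, Arf3 with Arf5, Nme1 with Nme2, and the entries that resemble Gabarapl1, Rps16 or Ppia have near-identical relatives, so their levels are uncertain.

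Neuron-specific genes stood among them. Nrgn, a postsynaptic protein that binds calmodulin, read 12.18, 12.70, 13.07 and 12.92 on the 4 arrays, a mean of 12.72 ± 0.39 (SD, n = 4). Scn3b, an auxiliary subunit of voltage-gated sodium channels, read 12.10, 12.60, 13.00 and 12.75. Eno2, the neuronal enolase, read 12.07, 12.50, 12.98 and 12.75. All 3 were again lowest on naive replicate 1 and highest on sham replicate 1. Zwint, a kinetochore protein also known to bind Snap25, averaged 12.85. Pebp1, the precursor of hippocampal cholinergic neurostimulating peptide, averaged 12.85. Atp1b1, a subunit of the sodium pump, averaged 12.68, and Snrpn, an imprinted spliceosome component, 12.65. Ap2m1, a subunit of the clathrin adaptor of endocytosis, averaged 12.39, as did Ndrg4.

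**Figure D1:**
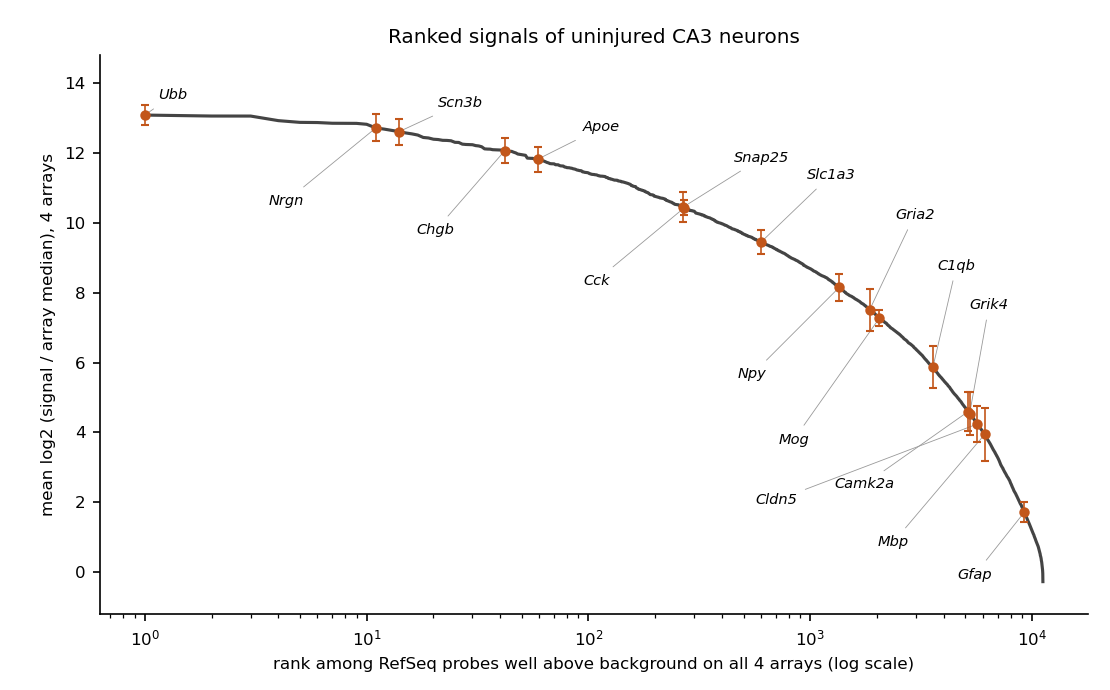
Mean log2 signal over the array median (vertical axis) against rank on a log scale (horizontal axis) for the 11175 RefSeq probes well above background on all 4 uninjured arrays, with named genes as points and bars of 1 SD over the 4 arrays. Snap25 and Cck lie at ranks 267 and 270, whereas Camk2a, Grik4 and Mbp lie in the middle of the curve and Gfap near its lower end.

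**Figure D2:**
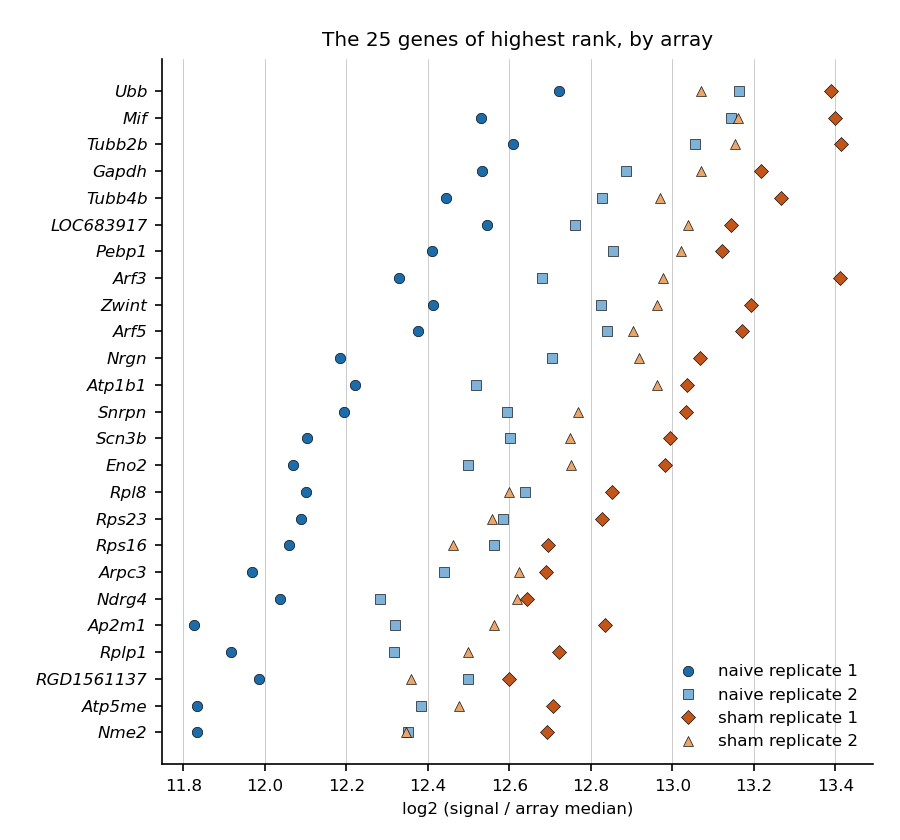
Log2 signal over the array median of the 25 genes of highest rank, with 1 symbol for each naive or sham array. Naive replicate 1 gives the lowest value of every gene shown.

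Families of energy supply and protein synthesis were well represented among the first 100 genes. Respiratory chain and ATP synthase subunits gave 14 of them, led by Atp5me at 12.35, Cox8a at 12.20 and Cox6a1 at 12.18, and 75 of the 78 genes of this family were ranked, with a median level of 9.31. Ribosomal proteins gave 7, led by Rpl8 at 12.55 and Rps23 at 12.51, and 88 of 91 were ranked, with a median of 9.72. Tubulins gave 4 and thymosins 1, Tmsb4x at 11.51. Entries named only as similar to a tubulin, a ribosomal protein or a respiratory chain subunit were not counted in these families. No calmodulin or ferritin gene was among the 100; the highest of each read 10.87 and 10.50. The other 74 included the glycolytic genes Gapdh, Eno2, Eno1 and Pgam1, the secretory proteins Scg5 at 12.09 and Chgb at 12.07, the neuronal calcium sensor Hpca at 11.85, the adhesion molecule Nptn at 12.11, the imprinted gene Nnat at 11.97, the secreted protein Olfm1 at 11.95 and the fractalkine gene Cx3cl1. Apoe, a lipid carrier made mainly by astrocytes in the brain, was also there and read 11.58, 12.20, 12.05 and 11.44. Unlike most of this group it was lowest on sham replicate 2. The 100 genes together took between 22.6% and 23.3% of the summed RefSeq signal of an array.

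The neuronal identity of the pools was read from marker genes. Snap25, the presynaptic fusion protein, held rank 267 and read 9.97, 10.35, 10.99 and 10.49. Camk2a, the calcium-calmodulin kinase of excitatory synapses, held rank 5147 and read 3.86, 5.12, 4.88 and 4.54. Grik4, the kainate receptor subunit concentrated in CA3, held rank 5226 and read 3.61, 4.95, 4.83 and 4.79. Snap25 thus lay far up the ranking, while Camk2a and Grik4 lay close to the median gene and were lowest on naive replicate 1. A second Camk2a probe, annotated by an accession outside RefSeq, was also well above background on all 4 arrays and averaged 1.14.

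Of 24 genes listed for pyramidal neurons, 21 were present, here meaning well above background on all 4 arrays, with a median level of 9.16, the highest of any marker list; 5 of the 24 also belong to other lists. Chn1, a Rac-regulating protein of neurons, averaged 11.27, Stmn2, a regulator of axonal microtubules, 10.95, Gap43, a growth cone protein, 10.74, and Uchl1, a neuronal ubiquitin hydrolase, 10.70. Rbfox3, which encodes the NeuN antigen, averaged 9.16, and Neurod6, a transcription factor of hippocampal pyramidal neurons, 7.91. Slc17a7, the vesicular glutamate transporter, read 2.21, 2.50, 4.06 and 2.41, and Map2, a dendritic protein, read -0.55, 2.24, 1.54 and 1.51. Both were well above background throughout but below the median gene. A second Map2 probe averaged -1.91 and was well above background on no array. Syn1 and Grin2b were not well above background on any array, and Gria1 was so on 2. For Syn1, and for Flt1, Adora3, Oxtr, Kcna2 and Kiss1 below, this call rests on 3 arrays, since naive replicate 1 had no uniform spot.

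Subfield markers were mixed. Of 11 CA3 genes 9 were present, with a median of 4.44. Mas1, the angiotensin fragment receptor, read 7.96, 8.63, 9.11 and 8.83, and Cpne4, a copine, read 8.21, 8.20, 9.23 and 8.80. Both were highest on sham replicate 1. Bok, a Bcl2 family member, averaged 4.45, and St18 and Iyd were not well above background on any array. Of 8 CA1 genes 4 were present on all arrays, with a median of 2.95 and a highest level of 5.37 in Nov, a matricellular protein; Wfs1, an endoplasmic reticulum protein, averaged 2.58, and Fibcd1 and Mpped1 were not well above background. Of 6 dentate granule cell genes only Calb1, a calcium buffer also found in interneurons, was present on all arrays, at 4.94, and Prox1, Dsp, Tdo2 and Lct were not well above background on any. Of 5 CA2 genes 4 were present, with a median of 6.10. Pcp4, a calmodulin regulator of CA2 neurons, read 10.86, 9.28, 8.77 and 10.43, and Rgs14, a brake on CA2 plasticity, averaged 7.07. Pcp4 was highest on naive replicate 1, the array that was lowest for most neuronal genes.

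Ionotropic glutamate receptor genes were represented by a few bright subunits and several dim ones. Grin1, the obligatory NMDA receptor subunit, read 9.58, 10.07, 10.79 and 10.33. Gria2, the AMPA receptor subunit that limits calcium entry, read 7.03, 7.03, 8.26 and 7.74, and its second RefSeq probe averaged 5.88. Grin2b read -2.82, -2.79, -2.34 and -2.15, below the level of well measured probes on every array. AMPA receptor genes were present on all arrays in 3 of 4 cases, kainate receptor genes in 3 of 5 and NMDA receptor genes in 4 of 6. Among NMDA subunits Grin2c averaged 7.34, Grin2a 4.02 and Grin2d 1.85. Among kainate subunits Grik5 read 1.91, 5.94, 1.90 and 5.10, a spread of 2.11 (SD, n = 4), with naive replicate 2 and sham replicate 2 high and the other 2 arrays low. Grik2 averaged 3.19, and Grik3 was not well above background on any array.

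**Figure D3:**
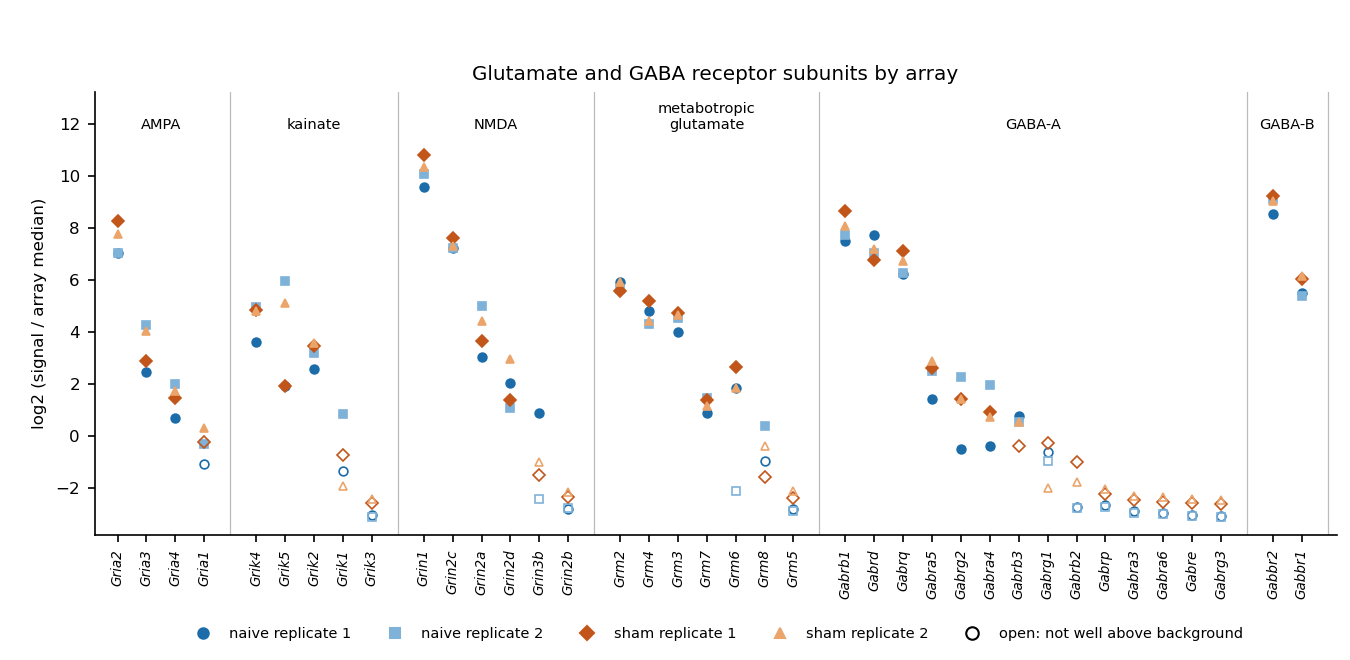
Log2 signal over the array median of the glutamate and GABA receptor genes reported here, ordered by mean within each family, with filled symbols where the probe was well above background on that array. Grin1, Gria2, Grik4, Gabrb1 and Gabbr2 head their families, and Grik3, Grin2b and Grm5 have open symbols on every array.

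Of 8 metabotropic glutamate receptor genes 5 were present on all arrays. Grm2, an autoreceptor of glutamate terminals, averaged 5.75 ± 0.19 (SD, n = 4) and Grm4 4.67, and Grm5 was not well above background on any array. Of 15 GABA-A receptor genes 7 were present. Gabrb1 averaged 7.97, Gabrd, the subunit of extrasynaptic receptors, 7.17 and Gabrq 6.57, whereas Gabra5, an alpha subunit typical of the hippocampus, averaged 2.36. Gabra3, Gabra6, Gabrb2, Gabre, Gabrg1, Gabrg3 and Gabrp were not well above background on any array. Both GABA-B receptor genes were present, Gabbr2 at 8.96 and Gabbr1 at 5.76. Of 4 glycine receptor genes Glra2 alone was present on all arrays, at 4.55, and Glra3 was not well above background on any.

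Modulatory receptors differed by class. Over all receptor lists 60 of 138 genes (43.5%) were present on all 4 arrays, against 49.3% of all named genes. Chrm3, a muscarinic receptor coupled to phospholipase C, read 7.86, 8.75, 9.17 and 8.66, and Chrm4 averaged 5.52. A second Chrm4 probe averaged -1.82 and was well above background on no array. Adra1d, an alpha-1 adrenergic receptor, read 7.72, 8.03, 8.86 and 8.73, and Adra2c averaged 5.50. Sstr3, a somatostatin receptor of neuronal cilia, read 7.63, 8.01, 8.97 and 8.36. Chrm3, Adra1d and Sstr3 were lowest on naive replicate 1 and highest on sham replicate 1. Chrm1 and Chrm2 were not well above background on any array, nor were Adra1a, Adrb1 and Adrb3. Muscarinic genes were present in 2 of 5 cases and adrenergic genes in 5 of 9.

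Adenosine receptor genes were present in 3 of 4 cases, led by the inhibitory receptor Adora1 at 7.60, and Adora3 was not well above background. Cnr1, the cannabinoid receptor of nerve terminals, was 1 of 2 genes present and read 5.52, 5.83, 7.08 and 6.76, lowest on naive replicate 1 and highest on sham replicate 1. Nr3c2, the mineralocorticoid receptor, averaged 7.76 and Nr3c1, the glucocorticoid receptor, 4.70; these were the 2 of 6 steroid receptor genes present, and Esr1, Esr2 and Pgr were not well above background. The neurotrophin receptors Ntrk2 and Ntrk3 averaged 7.72 and 6.85, and Ngfr was above background on 1 array. Opioid receptor genes were present in 2 of 4 cases, Oprl1 at 4.96 and Oprm1 at 1.64, and Oprk1 was not well above background; Oprd1 was above background on the 3 arrays with a uniform spot.

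Of 13 nicotinic receptor genes 2 were present on all arrays, Chrna4 at 2.81 and Chrna7, which forms receptors of high calcium permeability, at 2.48. The other 2 RefSeq probes of Chrna7 averaged -2.54 and -2.62 and were well above background on no array. A further 6 genes were on no array: Chrna1, Chrna2, Chrna9, Chrnb1, Chrnb3 and Chrnb4. Of 14 serotonin receptor genes 2 were present, Htr7 at 4.15 and Htr3a at 1.74. A second Htr7 probe averaged -1.72 and was well above background on 1 array. The 9 not well above background on any array were Htr1a, Htr1b, Htr1f, Htr2a, Htr2b, Htr2c, Htr4, Htr5a and Htr6. Of 5 dopamine receptor genes Drd4 at 1.03 and Drd5 at 0.61 were present, and Drd1a, Drd2 and Drd3 were not well above background. Neuropeptide receptor genes were present in 11 of 28 cases, with Ntsr2, a neurotensin receptor, at 6.84 after Sstr3. Npy2r, Galr1, Vipr1, Crhr2, Cckar, Oxtr, Avpr1b and Ntsr1 were not well above background on any array.

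Ion channel genes were present on all arrays in 60 of 117 cases (51.3%), a share close to that of all named genes. Of 13 sodium channel genes 7 were present. After Scn3b stood Scn4b, another auxiliary subunit, at 8.63, and Scn2a1, a pore-forming subunit of axons, which averaged 8.48. Scn1a averaged 4.43, and Scn4a, Scn8a and Scn11a were not well above background on any array; Scn8a encodes the main channel of mature axon initial segments. Of 23 calcium channel genes 12 were present. Cacna2d1, the auxiliary subunit that binds gabapentin, read 9.16, 10.18, 9.63 and 10.04, and Cacnb3 averaged 9.68. Among pore-forming subunits Cacna1b, of N-type channels, averaged 6.89 and Cacna1c, of L-type channels, 5.24. Cacna1a, the P/Q-type subunit, was not well above background on any array, nor were Cacna1f, Cacng1, Cacng4 and Cacng5.

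Voltage-gated potassium channel genes were present in 18 of 36 cases. Kcnh1, a channel of the ether-a-go-go family, read 7.33, 8.25, 8.62 and 8.26, lowest on naive replicate 1. Kcna1 averaged 7.50, and Kcnd2, the A-type channel of pyramidal dendrites, 5.53. Kcna2, Kcna6, Kcnf1, Kcng3, Kcnh4, Kcnh5, Kcns2 and Kcnv2 were not well above background on any array. Inward rectifier, tandem-pore and calcium-activated potassium channel genes were present in 17 of 34 cases, led by Kcnmb4, the neuronal auxiliary subunit of BK channels, at 6.86 and Kcnj6, a channel opened by G proteins, at 5.98. Kcnj1, Kcnj2, Kcnk3, Kcnk10, Kcnmb2 and Kcnmb3 were not well above background. Among HCN pacemaker channel genes Hcn2 averaged 6.66 and Hcn3 1.37, and Hcn4 was not well above background. Of 7 TRPC genes 3 were present, among them Trpc1 at 7.78 and Trpc4 at 5.87, and Trpc7 was on no array.

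**Figure D4:**
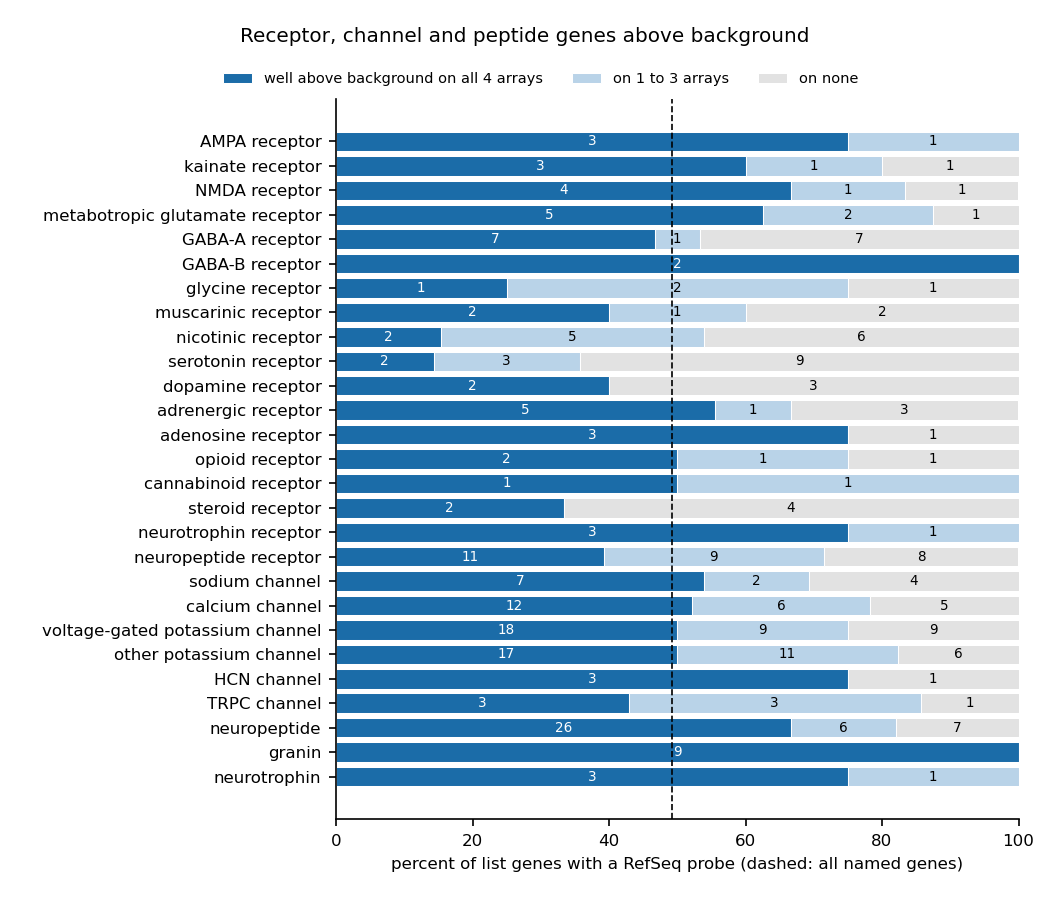
Share of the genes of each receptor, channel and peptide list (horizontal axis, percent of genes with a RefSeq probe) called above background on all 4 uninjured arrays, on 1 to 3 or on none, with the number of genes printed in each bar and the 49.3% of all named genes as a dashed line. Nicotinic and serotonin receptors have the shortest dark bars, and GABA-B receptors and granins are dark throughout.

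Peptide genes were well represented, with 38 of 52 (73.1%) present on all arrays. All 9 genes of the secretory granule list were present, with a median of 9.24. Scg5, a chaperone of prohormone convertase, read 11.60, 12.10, 12.39 and 12.25, and Chgb, a granule matrix protein, read 11.61, 12.02, 12.43 and 12.23. Cpe, which trims peptide precursors, averaged 10.92, and Pcsk2, a convertase, 7.94. Among 39 neuropeptide genes 26 were present on all arrays, with a median of 4.45. Cck, which encodes cholecystokinin, read 10.13, 10.63, 10.44 and 10.53 at rank 270, and Npy, an interneuron peptide, read 7.71, 8.34, 7.99 and 8.56. Cck varied little between the arrays, with an SD of 0.22 against 0.44 for the median probe, and Npy was highest on sham replicate 2. Nmb averaged 6.96, Vip 6.83, Sst 6.43 and Pdyn, a granule cell peptide of mossy fibres, 5.53. Pmch, Nmu, Iapp, Kiss1, Uts2, Edn1 and Edn3 were not well above background on any array. Of 4 neurotrophin genes 3 were present, Ngfb, which encodes nerve growth factor, at 3.60, Bdnf, the brain-derived factor, at 2.66 and Ntf3 at 1.49.

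Genes that mark other cells were also found in the pools. In bulk pools fewer cells of a type and less RNA per cell cannot be told apart. Mbp, the myelin basic protein, held rank 6103 and read 3.07, 4.81, 3.61 and 4.28, and its second probe averaged 2.77. Mbp was highest on naive replicate 2 and lowest on naive replicate 1. Of 13 oligodendrocyte genes 11 were present, with a median of 4.42. The signals of these 11 genes, summed in units of the array median, were 1462, 1261, 2045 and 1945 on the 4 arrays. Mog, on the outer myelin surface, averaged 7.27 and Opalin 6.35, and Ugt8 was not well above background on any array. Of 4 precursor cell genes 3 were present, Olig1 at 8.59, Pdgfra at 5.07 and Cspg4 at 4.56, and Olig2 was not well above background; Olig1 is also a gene of mature oligodendrocytes.

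**Figure D5:**
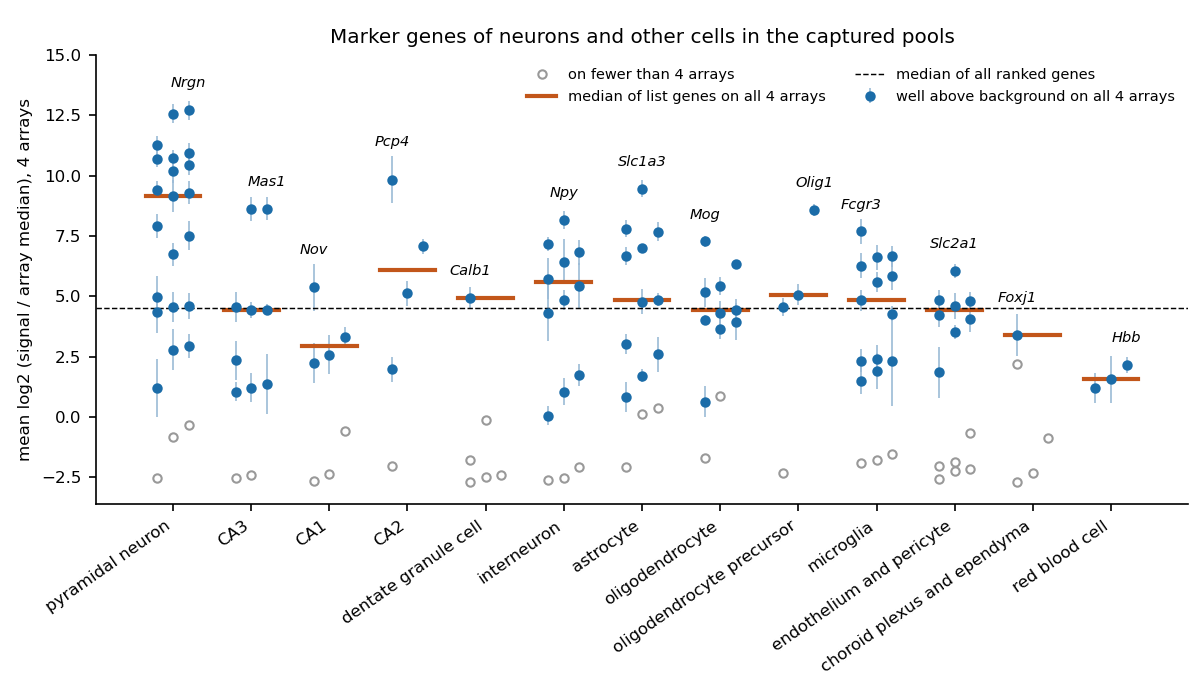
Mean log2 signal over the array median for the reported genes of each marker list, with bars of 1 SD over the 4 uninjured arrays, open symbols for genes not well above background on all 4, a bar at the median of all genes of the list present on all 4 arrays and a dashed line at the median of all ranked genes. Pyramidal neuron genes have the highest median, 9.16, and Slc1a3, Pcp4 and Olig1 stand apart from the rest of their lists.

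Astrocyte genes were present in 11 of 14 cases, with a median of 4.86. Slc1a3, the glial glutamate transporter, read 9.18, 9.31, 9.97 and 9.35, and Glul, glutamine synthetase, read 7.34, 7.87, 8.19 and 7.86. Gfap, the intermediate filament of astrocytes, held rank 9211 and read 1.43, 2.10, 1.75 and 1.58. Slc1a3 and Glul were thus well up the ranking on every array, and Gfap was in its lowest part. A second Slc1a3 probe averaged 4.91. Aldoc, an astrocyte aldolase, averaged 7.69 and Aqp4, the water channel of astrocyte endfeet, 0.81, and Fgfr3 was not well above background on any array. The summed signals of the 11 genes were 1178, 1422, 1952 and 1335.

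Of 16 microglial genes 13 were present, with a median of 4.83. Fcgr3, an Fc receptor, read 7.08, 7.74, 8.32 and 7.63, and C1qa, a complement subunit, averaged 6.62. Second probes averaged 3.28 for Fcgr3 and 4.89 for C1qa. Laptm5, a lysosomal protein of blood cells and microglia, read 5.99, 6.83, 6.91 and 6.91. Fcgr3, C1qa and Laptm5 were lowest on naive replicate 1, and the signals of the 13 genes, summed in units of the array median, were 414, 781, 855 and 714. Cd74, the invariant chain of antigen presentation, ranged from 0.00 on naive replicate 1 to 4.33 on naive replicate 2. The defining genes Itgam and Cx3cr1 were not well above background on any array, and P2ry12 averaged 2.41.

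Of 14 endothelial and pericyte genes 8 were present, with a median of 4.42, led by Slc2a1, the glucose transporter of brain capillaries, at 6.05, Kdr, a VEGF receptor, at 4.84 and Pdgfrb, a pericyte receptor, at 4.80. Their summed signals were 156, 224, 243 and 196. Pecam1, Flt1, Tie1 and Abcb1a were not well above background on any array. Anpep was also dim by its RefSeq probe, whereas a probe of another accession averaged 3.97 and was well above background throughout. Of 3 red blood cell genes all were present at low levels, Hbb at 2.16, Alas2 at 1.55 and Slc4a1 at 1.19, with summed signals of 13.0, 6.18, 11.7 and 10.6. Of 5 choroid plexus and ependymal genes Foxj1 alone was present on all arrays, at 3.39. Ttr, the transthyretin of choroid plexus, read -0.26, -3.13, 1.34 and 10.81, so that sham replicate 2 stood far above the other arrays, and Kl and Clic6 were not well above background on any array.

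Interneuron genes were present in 12 of 15 cases, with a median of 5.58; 4 of the 15 also belong to other lists. Pvalb, a calcium buffer of fast-spiking cells, read 6.76, 7.20, 7.42 and 7.31. Sst, the somatostatin gene, read 5.77, 7.64, 6.71 and 5.61, with naive replicate 2 highest. Gad1, which makes GABA, was above background on all arrays only by its brightest probe, at 0.04, and Gad2, Lhx6 and Erbb4 were not well above background on any array. The summed signals of the 12 genes were 752, 1048, 1005 and 1085, against 18179, 25058, 34495 and 28310 for the 21 pyramidal neuron genes. Many of the 21, such as Eno2 and Snap25, are genes of neurons in general. Sums over different probes therefore do not measure the share of either cell type in the pools. The part of other cells in the level of any gene was not tested.

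The injured arrays served only to place these baseline levels. Of 28360 probes tested with limma, 12568 (44.3%) passed an adjusted p of 0.05, 7572 (26.7%) higher and 4996 (17.6%) lower in uninjured neurons. Injury, slide, scan and feature extraction protocol cannot be told apart here, since the uninjured arrays lay on 1 slide and the injured arrays on another. Of the calls 60.2% were higher in uninjured neurons, and scaling to the 75th percentile made this 35.7%, to the median of detected probes 29.0%, and quantile normalization 42.1%. The median probe differed by 0.29 with the main scaling, by -0.32, -0.49 and -0.17 with these 3, and by 0.34 with scaling to RefSeq probes and 0.30 in the authors' series values. Snap25 read 8.89, 7.25, 6.20 and 7.63 on the injured arrays, below every uninjured value, a difference of 2.96 ± 0.50 (SE) with a limma adjusted p of 0.00304. Tyrobp, a microglial adaptor, read 3.85, 4.33, 4.38 and 4.56 on the uninjured and 5.94, 5.67, 8.75 and 7.41 on the injured arrays, again with no overlap, a difference of -2.66 ± 0.39 (SE) with a limma adjusted p of 0.00181. Both genes kept their direction under every scaling tried, whereas with normexp background correction limma called 0 probes and 3814 had an unadjusted p under 0.05. By list, 9 of 22 pyramidal neuron genes tested were higher and 1 lower, with a median difference of 1.13, which fell to 0.35 with 5 higher and 3 lower under the detected-probe median and to 0.07 with 0 calls with normexp. Of 12 oligodendrocyte genes 8 were higher, with a median of 1.85 (0.54 with normexp). The count was 7 with the 75th percentile, 5 with the detected-probe median or quantile normalization, and 0 with normexp. Of 14 microglial genes 8 were lower, with a median of -1.22 (-1.05 with normexp). That count stayed at 8 with the 75th percentile, the detected-probe median and quantile normalization, and was 0 with normexp. Neither median changed sign under any scaling tried, and the part of these cells in the other differences was not tested. The limma adjusted p was 0.269 for Camk2a, 0.499 for Grik4, 0.168 for Gfap and 0.587 for Mbp.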

How the data were processed

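Each array was scanned in 1 colour and read by Agilent Feature Extraction 9.1.3.1, and the authors deposited background-subtracted intensity values per spot with their flags. The authors also deposited a series table of processed signal, used here only as an alternative. The processed signal of each spot was divided by the array median as in the study's methods, floored at 0.01 and taken to log2 with Python 3.11.15. Spots marked non-uniform and control spots were left out (702 probes of naive replicate 1), and spots of a probe were averaged. Of 24588 RefSeq probes, 10730 matched an accession of the GRCr8 reference table; others kept the array's gene name. Named genes were the 25 highest, the 5 markers, the brightest genes of each list, and list genes above background nowhere. Other genes were named after their values were seen. Members and lists were chosen with earlier results of these data known. For uninjured against injured arrays, limma 3.58.1 (R 4.3.3) was fitted to 4 groups with Benjamini-Hochberg adjustment, over probes that exceeded background in each array of at least 1 group, and was tested on simulated data. Alternatives covered scaling, background correction, the authors' values, the dim-probe filter, probe choice, floor, design, and each array left out. Some list genes are not reported here by name.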

Additional observations from a re-analysis of the deposited data

Results flagged for a closer look

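Of 112 named genes examined over the 4 uninjured arrays, 6 had 1 array far from the other 3, judged by the gap to the nearest array divided by the whole range (Dixon's ratio). Chance alone gives about 1 in 20. In 4 of the 6 the low array was naive replicate 1, which also sat lowest over all ranked probes. These were Grik4, with 3.61 against 4.79 to 4.95 and a ratio of 0.883, Necab2, a calcium-binding protein of CA2, with 4.36 against 5.27 to 5.44 and a ratio of 0.841, Laptm5, with 5.99 against 6.83 to 6.91 and a ratio of 0.906, and Hcn2, with 6.29 against 6.74 to 6.81 and a ratio of 0.851. Nov was high on naive replicate 2, at 6.80 against 4.74 to 5.05, with a ratio of 0.849. Calb1 was low on sham replicate 1, at 4.26 against 5.11 to 5.24, with a ratio of 0.869.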

How the results depend on the processing

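The first 100 genes shared 94 to 100 members with those under other scalings, background correction and the authors' values, 97 to 99 with 1 array left out, 96 on naive arrays alone, 95 on sham arrays alone, and 78 with a gene's probes averaged. The 11175 RefSeq probes became 11356 to 11560 with 1 array left out, 13903 with positive and significant signals, 11347 with non-uniform spots kept (chosen after seeing the data), and 5514 with NM accessions alone, which are fewer probes. Counting probes of other accessions, also chosen after seeing the data, added 1 receptor gene and 1 marker gene. Over the alternatives Camk2a held ranks 5046 to 5370, Grik4 5012 to 5409, Snap25 244 to 282, Mbp 5776 to 6448 and Gfap 9100 to 9389.

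For uninjured against injured neurons, the probes higher in uninjured neurons numbered 4467 with the 75th percentile, 3757 with the detected-probe median, 4535 with quantile normalization, and 4560 to 8675 with 1 array left out, the 4560 without sham replicate 1 and 4608 without surviving replicate 2. Those lower numbered 8051, 9220 and, for probes well above background on all 8 arrays, 1147. With normexp limma called 0 in either direction, and 3814 probes had an unadjusted p under 0.05. Camk2a became -0.011 with the detected-probe median and -0.15 with normexp, and Nrgn -0.020 and -0.13. Grik4 became -0.68 with normexp and ran from -0.51, without dying replicate 1, to 2.51 with 1 array left out. Mbp became -0.29 with the 75th percentile, -0.46 with the detected-probe median, -0.48 with quantile normalization and -0.31 with normexp, and ran from -0.12, without naive replicate 2, to 0.75 with 1 array left out. The cause was not tested. Of the other values of named genes 474 kept direction and side of the threshold, 36 lost the call and 4 gained it. The number of arrays and dim signals limit the ranks near background.

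With the replicate number as a block, 7019 probes were higher and 4786 lower. Deviations of same-numbered arrays from their group means correlated between -0.19 and 0.07. With 2 arrays in each group, this cannot tell whether pools of different groups shared animals. The main fit used no pairing.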
